A study of Rattus norvegicus with 232 samples.

Results

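Genes were described whose level in whole brain set MWF/Hsd, the Munich Wistar Frömter rat, apart from the 7 other classic inbred strains sequenced in the same batches. A gene was taken when all 3 MWF animals lay above, or all 3 lay below, every one of the 21 other animals. Of 20859 features measured, 101 met this rule (0.484%), 69 higher (0.331%) and 32 lower (0.153%) in MWF. The 8 strains were MWF/Hsd, BN/NHsdMcwi, FHH/EurMcwi, GK/FarMcwi, LH/MavRrrc, M520/N, PVG/Seac and WAG/RijCrl, with 3 animals each, all labelled as untreated. They belong to the Hybrid Rat Diversity Panel, a collection of inbred strains whose animals are near-identical within a strain, and they form part of 197 animals of 74 strains in the same table. Total RNA depleted of ribosomal RNA was sequenced with strand information. The deposited values were read as log2 values, so that a difference of 1 is nominally a doubling. For an earlier release the study used a transformation that draws differences of low genes towards 0. Folds printed below may therefore not be true ratios. The labels of these 24 animals give neither age nor sex. The number of animals limits the precision, since no counts were used here and sequencing depth is unknown.

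The MWF rat was bred in Munich for glomeruli at the kidney surface. It is known for few nephrons, spontaneous albuminuria and raised blood pressure, and it is a model of kidney disease rather than of the brain. Inbred strains differ by variants fixed in each, and the level of many genes is inherited with them, so that animals of 1 strain tend to lie together.

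The 3 MWF animals came from sequencing batches 15, 16 and 17, 1 animal from each. Batch 15 held 3 of the other animals (1 each of FHH, M520 and WAG), batch 16 held 8 and batch 17 held 10. The library medians lay between 8.27 and 8.37. Over 250 genes that separate the 7 other strains (chosen with MWF left out), the deviations of MWF 1 correlated with those of MWF 2 and MWF 3 at r = 0.78 and 0.71, while MWF 2 and MWF 3 correlated with each other at 0.93. The highest correlation of an MWF animal with an animal of another strain was 0.38. For each other strain the genes were chosen anew with that strain left out. They numbered from 181 for BN to 277 for WAG, so the strains were not compared over the same genes. Each of the 4 batch 15 animals (MWF 1, FHH 1, M520 1 and WAG 1) stood further from its strain mates than the animals of the strains without a batch 15 animal did. WAG 2 and WAG 3 of batch 16 did too, at 0.70 and 0.71 for WAG 2 and 0.71 and 0.79 for WAG 3, and WAG 3 lay closer to WAG 1 of batch 15 than to WAG 2. Counts are therefore also given without batch 15. Neuron, astrocyte and oligodendrocyte markers were high in every animal, with list means of 13.48 to 13.69, 12.83 to 13.28 and 14.11 to 14.44 over both groups. None of the marker lists of cell types, brain regions and neighbouring tissues held a gene called by limma at a 5% false discovery rate other than Ddx3y of the sex list. At an unadjusted p under 0.05, met by 11.6% of all features, each held between 0 and 3 genes, with 3 of 8 for oligodendrocytes, whose list mean was 14.35 to 14.44 in MWF and 14.11 to 14.41 in the others, and 3 of 8 for the cerebellum, with 10.14 to 10.50 and 10.21 to 10.99. The pituitary list (2 measured genes) averaged 4.92 to 5.35 in MWF and 3.63 to 5.95, median 3.92, in the others. The microglia list averaged 9.02 to 9.30 in MWF and 9.08 to 9.56 in the others. The part of these cell types in the results was not tested, and in whole tissue fewer cells of a type cannot be told apart from less RNA per cell.

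A limma fit over the 24 animals compared the MWF mean with the mean of the 7 other strain means, gene by gene, and called a gene at a Benjamini-Hochberg adjusted p under 5% over all features. It called 368 of 20859 features (1.76%), 223 higher in MWF (1.07%) and 145 lower (0.695%). All 3 MWF animals lay outside the others in 101 features (0.484% of all), and 82 of these were also called (0.393%), 58 higher (0.278%) and 24 lower (0.115%). The outside rule and the call read the same values, so the 82 are a description and not a test of the list. The same rule applied to each of the other strains gave 281 features for BN, 109 for FHH, 305 for GK, 197 for LH, 85 for M520, 148 for PVG and 30 for WAG. Only M520 and WAG had fewer than MWF. Without MWF 3 the called total fell to 167 and the called and lower features to 15. Without MWF 2 the called total was 239, and without MWF 1 the called and lower features were 44. Leaving out the 4 libraries of batch 15 was an alternative chosen after the data were seen. It called 324 features, of which 92 higher and 53 lower ones were also outside, and 16 of the 82 called members lost the call. The fits without an MWF animal or without batch 15 left 2 MWF animals, for which the outside rule is easier to meet. Their outside counts are therefore not comparable with the 58 and 24 above. When the 7 strains were pooled as 1 group, so that the spread between strains entered the error, 46 features were called, of which 31 higher and 10 lower ones were outside. In separate deposited tables with 2 MWF animals, 10 of the 52 called members found among reconstructed genes and 27 of the 54 found among Ensembl genes kept their call and direction.

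**Figure D1:**
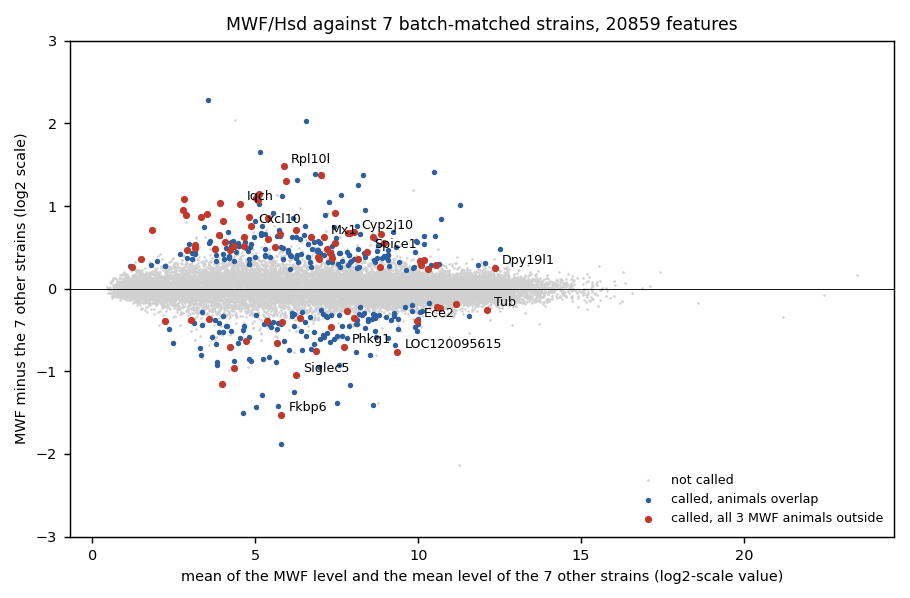
Difference between MWF/Hsd and the 7 other strains (vertical axis, log2 scale) against the mean of both levels (horizontal axis, log2-scale value) for each feature. Blue points were called at 5% FDR with overlapping animals, red points were called with all 3 MWF animals outside the 21 others, and 2 features with a difference of 3 or more are not drawn. The red points spread over both directions and over most levels, with 58 above 0 and 24 below, and 65 of the 82 lie below the median of all values (8.31) on the horizontal axis.

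Among genes with a symbol and a MWF mean above the median of all values (8.31), 13 were called and lay wholly above the others. Positions below are those of the deposited annotation, whose build is not given in the sources used here. The largest differences belonged to Cyp2j10, Sult1d1, Sync, Slitrk6 and Spice1. Cyp2j10, a cytochrome P450 of the family that oxidises fatty acids (chromosome 5, 110960319 to 110995227, minus strand), was at 8.39, 8.33 and 8.39 in MWF 1, 2 and 3. The 21 other animals ran from 6.65 to 8.20, median 7.65. The MWF mean exceeded the others by 0.68 ± 0.06 (SE), or 1.60-fold, with a limma adjusted p of 5.06e-07. The other strains did not form 1 group for this gene: BN averaged 6.73 and FHH 8.13, and with the strains pooled as 1 group the adjusted p was 0.549. Against animals of the same batch the difference was 0.42 in batch 15, 0.67 in batch 16 and 0.76 in batch 17. The other strains present differ between batches, batch 15 holding only FHH, M520 and WAG. Within-batch differences, here and below, are thus not like for like.

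Sult1d1, a cytosolic sulfotransferase that acts on catecholamines and other small phenols (chromosome 14, 20441135 to 20476341, plus strand), was at 9.47, 9.04 and 9.08 in MWF and at 7.91 to 8.92, median 8.58, in the others. Its difference was 0.67 ± 0.10 with an adjusted p of 7.03e-04. MWF 1 was the highest animal, and the nearest other animal, of FHH, lay 0.12 below the lowest MWF animal. With the strains pooled the adjusted p was 0.0979, and in the reconstructed and Ensembl gene tables it was 0.166 and 0.12. Sync encodes syncoilin, an intermediate filament protein (chromosome 5, 141631630 to 141661484, plus strand). It was at 8.81, 8.99 and 8.94 in MWF, against 8.14 to 8.47, median 8.28, and the nearest other animal, of LH, lay 0.34 below the lowest MWF animal. The difference was 0.62 ± 0.07 with an adjusted p of 5.61e-06, or 0.0992 in the reconstructed table.

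Slitrk6, a membrane protein that guides neurite growth (chromosome 15, 87507419 to 87570296, minus strand), was at 9.33, 9.14 and 9.17, against 8.24 to 8.98, median 8.60. It was higher by 0.55 ± 0.09, adjusted p 1.09e-03. Spice1, a spindle and centriole protein (chromosome 11, 56288216 to 56332382, minus strand), was at 8.66, 8.63 and 8.62 in MWF, with an SD of 0.02. The other animals lay at 7.99 to 8.33, median 8.22, and the 7 strains stood close together. The difference was 0.44 ± 0.05 with an adjusted p of 1.32e-05, and within batches it was 0.40, 0.47 and 0.42. In the reconstructed gene table neither Slitrk6 (adjusted p 0.318) nor Spice1 (0.148) was called, and in the Ensembl table Slitrk6 was not (0.0817).

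Smaller increases were called in Rsph10b (a radial spoke protein of motile cilia, 0.35), Cep85l (a centrosomal protein, 0.34), Cntnap5c (a neuronal adhesion protein, 0.34), Pcdhga4 (a gamma protocadherin, 0.28), Man1a1 (a Golgi mannosidase, 0.28), Gca (a calcium-binding protein, 0.27), Dpy19l1 (a C-mannosyltransferase of the endoplasmic reticulum, 0.25) and Paqr3 (a Golgi membrane protein, 0.23). Their adjusted p-values ran from 5.38e-03 for Pcdhga4 to 0.0375 for Cep85l. Dpy19l1 was at 12.48, 12.47 and 12.47 in MWF and at 12.08 to 12.41 in the others. Each of these 8 calls was lost when at least 1 MWF animal was left out, with a largest adjusted p of 0.256 for Cep85l without MWF 1 and 0.067 for Pcdhga4 without MWF 3. For Cep85l, Cntnap5c, Man1a1, Dpy19l1, Paqr3 and Rsph10b the call was also lost without 1 of the other strains. In the reconstructed gene table Rsph10b, Cep85l, Man1a1, Gca, Dpy19l1 and Paqr3 were not called. There the differences of Gca and Paqr3 were 0.14 and 0.11, with adjusted p-values of 0.988 and 0.999. In the Ensembl table the call of Rsph10b held (0.0415), and those of Cep85l (0.17, adjusted p 0.793), Paqr3 (0.12, 0.789), Man1a1, Gca and Dpy19l1 did not. Pcdhga4 belongs to a cluster whose genes share their last exons, so that reads from them may have been divided between members.

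**Figure D2:**
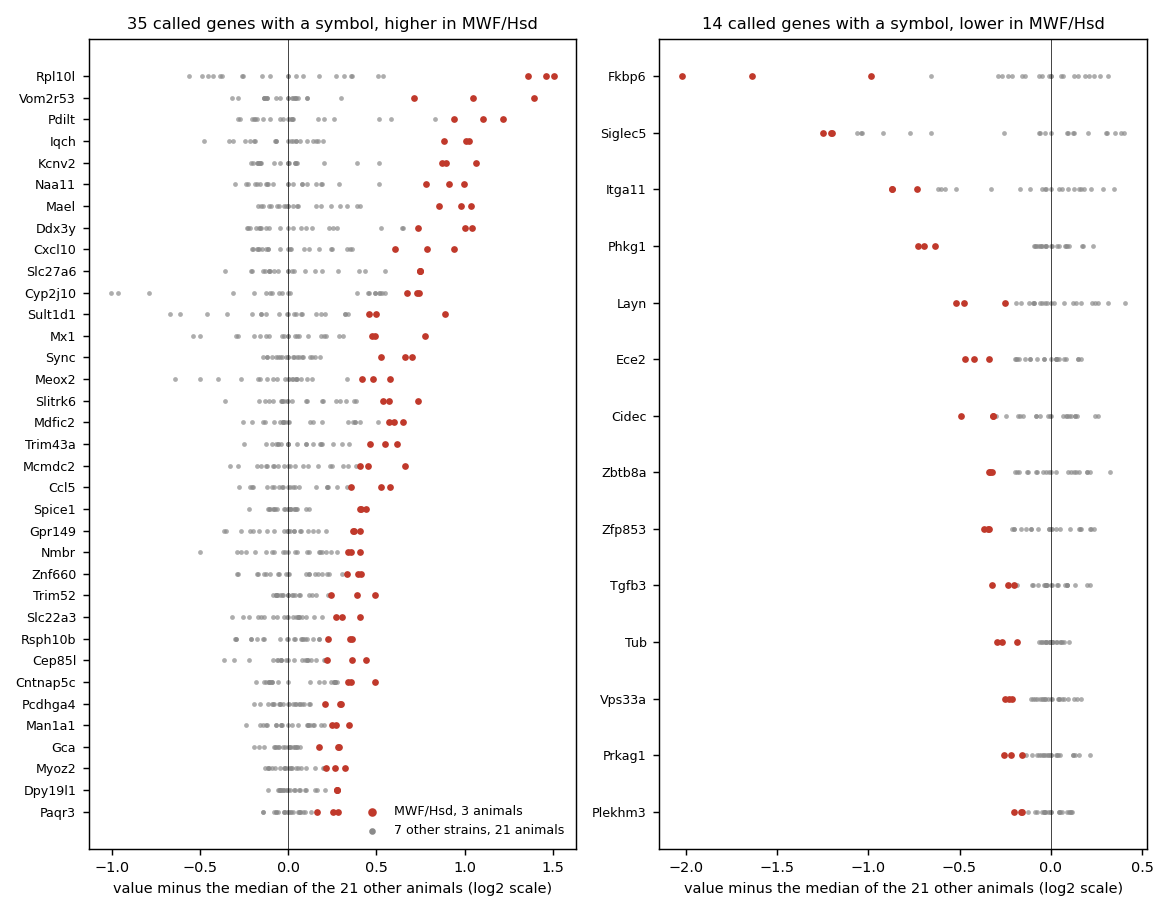
Value of each animal minus the median of the 21 other animals (horizontal axis, log2 scale) for the 35 called genes with a symbol that were higher in MWF/Hsd (left) and the 14 that were lower (right), with 3 MWF animals in red and 21 others in grey. The gap between red and grey points is wide for Rpl10l, Iqch, Sync, Spice1 and Phkg1 and narrow for Gca, Cep85l and Plekhm3.

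The remaining higher genes with a symbol had a MWF mean below that median. They were taken up after their values were seen. Rpl10l, a retrotransposed copy of a ribosomal protein gene, was at 6.53, 6.68 and 6.63 in MWF, against 4.61 to 5.71, median 5.17. The difference of 1.48 ± 0.09, or 2.79-fold, had the smallest adjusted p of the members, 5.20e-09, and none of the 66 remaining strain means reached the MWF animals. A near-identical parent gene exists, so its reads may come from more than 1 locus. Iqch, which carries a calmodulin-binding IQ motif, was at 5.07, 5.08 and 4.94 in MWF and at 3.58 to 4.25, median 4.06, in the others, a difference of 1.03 ± 0.11 with an adjusted p of 5.64e-06. In the Ensembl gene table the Iqch difference was 0.35 with an adjusted p of 0.516, and in the reconstructed table it was 1.45 with 0.103. Slc27a6, a fatty acid transport protein, was at 6.62 in each MWF animal and at 5.52 to 6.43 in the others, with a difference of 0.71 ± 0.07 and an adjusted p of 1.56e-06. FHH was the nearest strain, at 6.34.

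Gpr149, an orphan G protein-coupled receptor, was at 7.54, 7.50 and 7.50, against 6.77 to 7.35, with a difference of 0.43 ± 0.08 and an adjusted p of 2.94e-03, or 0.0566 with the strains pooled, 0.26 in the reconstructed and 0.101 in the Ensembl table. Kcnv2, a silent subunit that modifies potassium channels, rose by 0.96, and Naa11, an acetyltransferase copy of Naa10, rose by 0.90. Mael, which acts in transposon silencing in germ cells, rose by 0.90, and Pdilt, a disulfide isomerase homologue of the testis, rose by 1.04. The vomeronasal receptor Vom2r53, of a large family of similar genes, rose by 1.09. Kcnv2, Naa11, Mael, Pdilt and Vom2r53 had low levels, with MWF means of 3.27, 3.95, 3.31, 4.43 and 3.36. Among all features their mean levels lay at percentiles 9.8, 14.1, 10.3, 16.4 and 9.6. In the reconstructed gene table the Vom2r53 difference was -1.32 (adjusted p 0.124). In that table Kcnv2, Naa11 and Mael were higher by 2.63, 2.25 and 2.38 and were not called. Slc22a3, an organic cation transporter that clears monoamines, rose by 0.36, and Nmbr, the neuromedin B receptor, by 0.38. Meox2 (a homeobox factor of vessel and muscle), Mdfic2, Trim43a, Mcmdc2 (a meiotic MCM protein), Znf660, Trim52 and Myoz2 (a sarcomere protein) were higher by 0.26 to 0.57. Trim52, with means of 1.68 in MWF and 1.32 in the others, was near the lowest levels (percentile 3.2). So was Myoz2, at 1.33 and 1.07 (percentile 1.9). Calls of Meox2, Mdfic2, Trim43a, Nmbr, Znf660, Slc22a3 and Myoz2 did not hold without 1 of the MWF animals, with adjusted p-values of up to 0.237 for Myoz2 without MWF 3. Mcmdc2 lost its call with the strains pooled (0.09), in the reconstructed table (0.225) and in the Ensembl table (0.0903). In the reconstructed table none of these 9 genes was called, Trim52 having an adjusted p of 0.951 and Trim43a a difference of -0.01.

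Ddx3y was called higher as well, at 3.89, 3.85 and 3.58 in MWF and 2.61 to 3.49 in the others, a difference of 0.87 ± 0.11 with an adjusted p of 7.46e-05, or 0.0851 in the reconstructed gene table. Ddx3y is a DEAD-box helicase gene that RefSeq places on the Y chromosome. The deposited annotation places the name on chromosome 13 instead (98520538 to 98523707, plus strand). Both RefSeq transcripts of Ddx3y in the transcript table overlapped between the groups: NM_001167665.2 was at 10.80, 10.36 and 10.13 in MWF and 9.85 to 10.96 in the others, and XM_008773671.3 at 11.80, 10.73 and 10.44 against 9.78 to 11.34. The gene value and the transcript values of Ddx3y therefore do not show the same difference, and which locus the gene value counts was not tested. The Y-linked Kdm5d, at 10.54 to 10.97 in MWF and 10.34 to 10.92 in the others, and Eif2s3y, at 10.58 to 11.30 and 10.25 to 11.16, were measured well in every animal. Uty did not follow the strain: it was at 10.59 in MWF 1 but 9.53 and 9.43 in MWF 2 and MWF 3, while the others lay at 9.95 to 10.74.

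Of the features lower in MWF, 14 called ones carried a symbol. Those with both group means below the median of all values, Fkbp6, Siglec5, Itga11, Phkg1, Layn, Cidec, Zbtb8a, Zfp853 and Tgfb3, were taken up after their values were seen. Fkbp6, an immunophilin needed in meiosis and piRNA silencing (chromosome 12, 21318251 to 21390350, plus strand), was at 5.60, 4.94 and 4.56 in MWF. The other animals lay at 5.92 to 6.89, median 6.58. The difference of -1.53 ± 0.15, a 2.88-fold lower level, was the largest decrease, with an adjusted p of 2.08e-06. The MWF animals spread widely for this gene, with an SD of 0.52. Siglec5, a sialic acid-binding lectin of myeloid cells (chromosome 1, 93768190 to 93776774, plus strand), was at 5.75, 5.74 and 5.70 in MWF and 5.88 to 7.34, median 6.95, in the others. The difference was -1.05 ± 0.11 with an adjusted p of 5.40e-06, or 0.15 with the strains pooled. GK and LH, at 6.04 and 6.03, stood near MWF, whereas BN and FHH, at 7.16 and 7.06, did not.

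Itga11, the collagen receptor integrin alpha 11 (chromosome 8, 63105370 to 63256517, plus strand), was at 6.58, 6.44 and 6.44, against 6.69 to 7.66, median 7.31, a difference of -0.76 ± 0.10 with an adjusted p of 5.31e-05. GK came nearest. Phkg1, the catalytic subunit of phosphorylase kinase (chromosome 12, 26838286 to 26854547, plus strand), was at 7.43, 7.33 and 7.36 in MWF. All 21 others lay within 7.97 to 8.29, median 8.06. Its difference was -0.71 ± 0.06 with an adjusted p of 6.08e-07, and within batches it was -0.56, -0.76 and -0.74. Layn (layilin, a hyaluronan receptor) was lower, at -0.47 ± 0.08, and was not called in the reconstructed table (adjusted p 0.426).

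The genes above the median level differed by less than Fkbp6, Siglec5, Itga11, Phkg1 and Layn. Ece2, an endothelin-converting metalloprotease (chromosome 11, 80259130 to 80299686, minus strand), was at 9.76, 9.84 and 9.70 in MWF and 9.98 to 10.34, median 10.18, in the others, a difference of -0.39 ± 0.07 with an adjusted p of 3.57e-03. Tub, the tubby protein of neurons and cilia (chromosome 1, 162951929 to 163032691, plus strand), was at 11.97, 12.05 and 11.94, against 12.17 to 12.34, median 12.24. It was lower by -0.26 ± 0.05, with the same adjusted p of 3.57e-03. Neither call held in the reconstructed or the Ensembl gene table, where the adjusted p was 0.351 and 0.0543 for Ece2 and 0.658 and 0.382 for Tub. Vps33a, which takes part in fusion with lysosomes, differed by -0.24, Prkag1, a regulatory subunit of AMP-activated kinase, by -0.23, and Plekhm3, a pleckstrin homology protein, by -0.19. The lower-level Cidec (a lipid droplet protein), Zbtb8a, Zfp853 and Tgfb3 (a transforming growth factor) differed by -0.38, -0.36, -0.36 and -0.27. None of Vps33a, Plekhm3, Cidec, Zbtb8a, Zfp853 and Tgfb3 was called in either of those tables. In the Ensembl table the Prkag1 difference was in the other direction, at 0.10 with an adjusted p of 0.97.

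Calls of the small decreases rested on few animals. Without MWF 3 the adjusted p was 0.0615 for Ece2, 0.0627 for Tub, 0.157 for Cidec and 0.0507 for Layn. The calls of Vps33a, Prkag1, Plekhm3, Zfp853, Zbtb8a and Tgfb3 were lost without MWF 2, and the largest adjusted p was 0.231, for Prkag1 without MWF 1. Prkag1 lost its call in 19 of the 31 fits that left out an animal or a strain. The calls of Fkbp6, Siglec5, Itga11 and Phkg1 held in every such fit. In the Ensembl gene table, however, the Fkbp6 difference was -0.49 with an adjusted p of 0.0543.

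Of the 82 called features, 33 carried an identifier in place of a symbol, 23 higher and 10 lower. LOC120095615, annotated by RefSeq as a long noncoding RNA on chromosome 11, was at 9.12, 8.88 and 8.93 in MWF, while the other animals lay within 9.64 to 9.95, median 9.73. It was lower by -0.76 ± 0.06 with an adjusted p of 2.75e-07. RGD1564409 (chromosome 7, 17307141 to 17331501, plus strand) was at 7.46, 7.81 and 7.88, against 5.46 to 7.43, with BN at the top of the others, and rose by 1.37 ± 0.17, with an adjusted p of 4.41e-05, or 0.0521 with the strains pooled. LOC120093780 was at 6.60, 6.60 and 6.61, against 4.79 to 6.26, and rose by 1.31 ± 0.11. LOC100359752 rose by 1.15. LOC102555014, a V segment in RefSeq, and LOC120101891, a long noncoding RNA, were lower, with differences of -1.16 and -0.96. The call of LOC120101891 was lost without MWF 3 (adjusted p 0.126).

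The 19 members that were not called comprised 11 higher and 8 lower features. Their adjusted p-values ran upward from 0.051 for Uvssa, and the symbols were Chchd2, Znf354b, Mylk3, Tpmt, Pdzrn4, Hs3st5, Uvssa and Wdfy2 on the higher side and Cnot8, Polr3d, Mtx1, Zfp346, Samd12, Ano6, Nox3 and Shroom3 on the lower side. The identifiers were LOC100909928, LOC120103480 and LOC103690969. Chchd2 stood at 27.0 in MWF 1 and at 6.19 and 6.07 in MWF 2 and MWF 3. The 21 others lay between 4.15 and 6.04, and BDIX/NemOdaMcwi, outside these batches, averaged 21.8. The values of 27.0 and 21.8 may be faults of the deposited table rather than levels of Chchd2, which was not tested, and no difference is read from them. At the edge of the rule, LOC108349479, RGD1560146 and Gca cleared the nearest other animal by 0.0003, 0.0005 and 0.0011, and Pccb, Ccdc15 and Tnfrsf11a missed by 0.0017, 0.0024 and 0.0028.

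The other 66 strains of the table played no part in the rule. The MWF mean was the most extreme of all 74 strain means in 58 of the 82 called members (70.7%). Over all 20859 features this held for 2.10%, and for 9.32% of the 4711 features in which the MWF mean was at an end of the 8 strain means. The members were chosen by the stricter condition that every MWF animal lay outside and the difference was called, which in part fixes this position, so that these shares are not a matched background and the count is a description. Some of those 66 strains had 1 animal, and batch was not balanced between them and MWF. In 39 called members, 28 higher and 11 lower, none of the 66 strain means lay beyond the nearest MWF animal, and in 26 none lay beyond the midpoint between that animal and the nearest other animal. Spice1, Gpr149, Mael, Sult1d1, Itga11, Rpl10l and LOC120095615 were among the 26. For Spice1 the next strain, HXB27/Ipcv, averaged 8.40 against 8.64 in MWF. For LOC120095615 the next strain, LEXF2B/Stm, averaged 9.44 against 8.98. Iqch was most extreme in MWF, at 5.03, with FXLE13/Stm at 4.81.

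Other levels were shared. At least 1 strain mean lay beyond the nearest MWF animal in 43 called members, and 5 or more did in 9. LOC120093788 had 11 such strains, Layn had 10, Fkbp6 had 8, LOC108349732 had 7, Mx1 had 6, Vom2r53 had 5 and Cxcl10 had 4. For Vom2r53, 15 strain means lay past the midpoint. The strain past the midpoint most often was BUF/MnaMcwi, represented by 1 animal, in 10 of the 82 genes, among them Cyp2j10, Slc27a6, Slitrk6, Sync, Mx1 and Siglec5. FXLE13/Stm followed with 9, and the median over the 66 strains was 3.

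**Figure D3:**
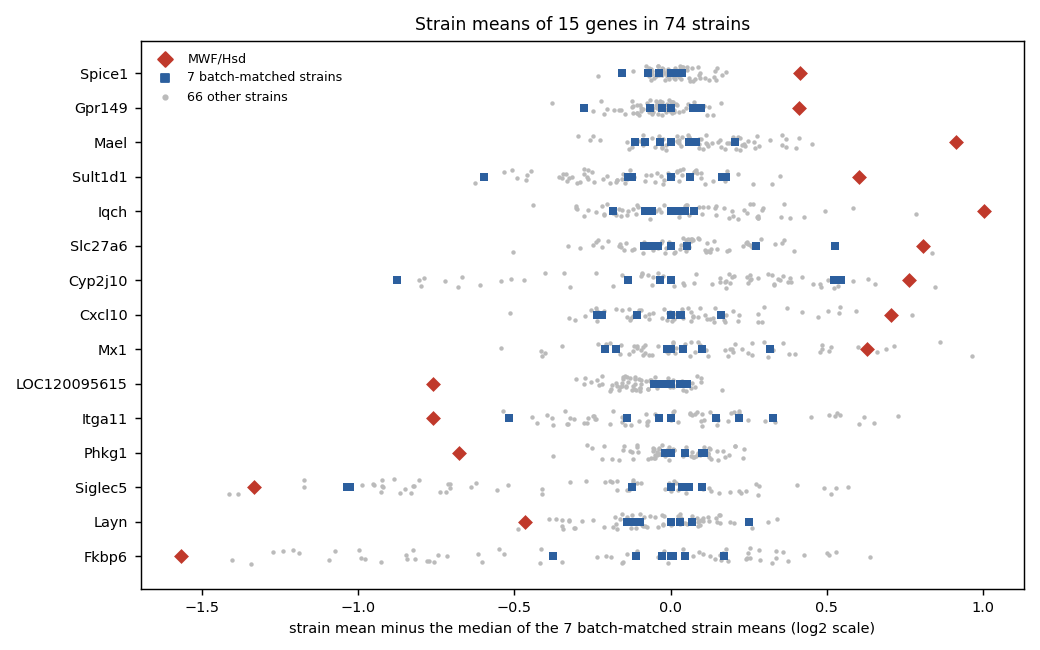
Strain means of 15 genes in 74 strains, each minus the median of the 7 batch-matched strain means (horizontal axis, log2 scale), with MWF/Hsd as a red diamond, the 7 batch-matched strains as blue squares and 66 other strains as grey points. MWF stands alone for Spice1, Gpr149, Mael and LOC120095615, and falls within or at the edge of a continuous spread for Mx1, Siglec5 and Fkbp6.

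Transcript values were read from a separate deposited table, so that levels are compared within it only, and no test was made on them. Of the 101 members, 66 had at least 1 RefSeq transcript there and 32 had more than 1. In 14 of the 32 some but not all transcripts lay wholly outside the other animals, and in 18 none did. Among the latter were Cep85l, Cntnap5c, Dpy19l1, Gca, Plekhm3, Rsph10b and Vps33a, and the single Tub transcript overlapped the others too. The share over all 45991 transcripts was not determined. The members were chosen by their gene values, so these counts are a description. The single Iqch transcript was at 4.71, 5.30 and 4.58 in MWF and from -0.79 to 3.22 in the others, a difference of 3.70. For Cyp2j10, NM_001134980.2 was higher by 0.97 and lay outside, while XM_039109900.1 overlapped. Of the 4 Spice1 transcripts, NM_001008285.1 lay outside at 7.51, 8.18 and 8.18, against 5.20 to 7.47.

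For Fkbp6, XM_008769130.3 was at 4.40, 3.16 and 2.33 in MWF and 5.55 to 6.91 in the others, a difference of -3.11. For Phkg1, XM_039089286.1 was lower by -0.96 and outside, and NM_031573.2, lower by -1.85, overlapped the others. Of the 3 Ece2 transcripts NM_001002815.2 was lower and outside, with a difference of -0.59, whereas XM_039088566.1 differed by 0.55 in the other direction and overlapped. The only Mx1 transcript was higher by 2.54 but overlapped the others. No member had transcripts outside in opposite directions.

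**Figure D4:**
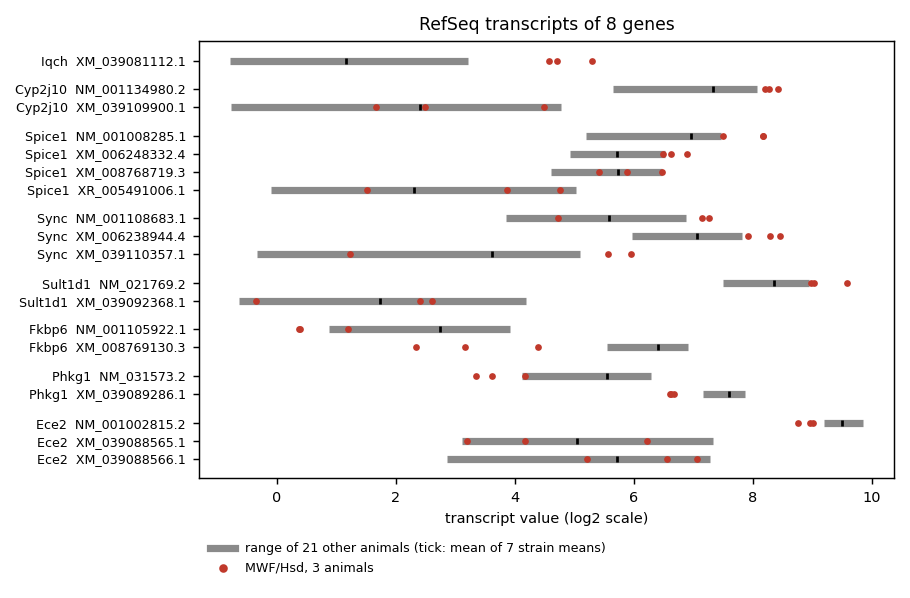
Transcript values (horizontal axis, log2 scale) of 8 genes, with the range of the 21 other animals as a grey bar, the mean of the 7 strain means as a black tick and the 3 MWF/Hsd animals as red points. In each gene drawn 1 transcript carries the red points clear of the bar, and the remaining transcripts overlap it. Genes with no transcript outside, such as Cep85l and Plekhm3, are not drawn.

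Some members lay next to each other. In the gene order of the GRCr8 assembly, 10 pairs of members had fewer than 10 measured genes between them, of which 4 pairs changed in the same direction. How many such pairs other sets of features of this size would give was not determined, so the pairs are a description. Naa11 and Paqr3 on chromosome 14 were adjacent and both rose. Trim52 and Slitrk6 on chromosome 15, with 1 gene between, also both rose, and Cep85l and Man1a1 on chromosome 20, with 4 between, did so too. LOC108351758 and Trim43a on chromosome 8 formed the fourth such pair. Phkg1 adjoined Chchd2 on chromosome 12. In opposite directions, Sync rose while Zbtb8a, with 3 genes between on chromosome 5, fell, and Iqch rose while Itga11, with 9 between on chromosome 8, fell. The 59 called members with a chromosome in RefSeq were spread over 18 of them.

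Gene groups were read from lists of genes known for kidney filtration, blood pressure, immunity and brain function. The median difference was 0.00 over all features. In none of the podocyte and albumin handling (17 measured), renin-angiotensin (16), immediate early (18), circadian clock (19), hypothalamic neuropeptide (14) and synaptic receptor (34) lists was a gene called by limma. At an unadjusted p under 0.05 (11.6% of all features) they held 3, 1, 0, 4, 3 and 8 genes, and their median differences lay between -0.07 and 0.07. Of 24 glutathione S-transferases, which conjugate toxic and oxidised compounds, Gsta4 was called higher (0.57) and Gstm4 lower (-0.31), 8.33% of the list against 1.76% of all features, and neither lay outside the other animals. At an unadjusted p under 0.05 the list held 7 genes, and its median difference was -0.02. Several of these genes are close copies of each other, so that reads may have been divided between them.

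Antigen presentation rests on class I and class II molecules, named RT1 in the rat and highly variable between strains. Of 44 measured genes of this list 10 were called (22.7%, against 1.76% of all features), 4 higher and 6 lower, with a median difference of -0.13, and none lay outside the other animals. RT1-N2 was higher by 1.66 ± 0.14, and RT1-T24-4 differed by -1.17 ± 0.11. Many RT1 genes are near-identical copies, and their reads may have been assigned to the wrong one.

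Interferons are released on infection. They induce antiviral proteins such as Mx1, a GTPase that blocks viral replication, and the chemokines Cxcl10 and Ccl5, which attract T cells. The MWF animals lay above all others for Mx1, Cxcl10 and Ccl5. Cxcl10 (chromosome 14, 15704772 to 15706969, plus strand) was at 5.26, 5.07 and 5.41, against 4.26 to 4.83, median 4.47. It was higher by 0.75 ± 0.10 with an adjusted p of 8.58e-05. Mx1 (chromosome 11, 36799653 to 36825224, minus strand) was at 7.32, 7.31 and 7.61, against 6.29 to 7.14, median 6.83, and was higher by 0.62 ± 0.11 with an adjusted p of 3.03e-03, or 0.0753 without MWF 3. Ccl5 (chromosome 10, 68322802 to 68327400, minus strand) was at 3.19, 3.24 and 3.02, against 2.38 to 3.00, and was higher by 0.47 ± 0.08 with an adjusted p of 2.75e-03. In the reconstructed gene table the differences were 1.25 for Cxcl10, 0.82 for Mx1 and 1.27 for Ccl5, with adjusted p-values of 0.0604, 0.177 and 0.408. Cxcl10 and Ccl5 were added to this group after their values were seen.

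The interferon-stimulated list as a whole did not share their direction. Of its 23 genes 6 were called (26.1%, against 1.76% of all features), Mx1 and Rsad2 higher and Ifit1, Ifi27, Mx2 and Stat2 lower, and the median difference was -0.11. Rsad2 (viperin, an antiviral enzyme) was at 8.21, 7.82 and 8.21, against 7.33 to 8.10, and was higher by 0.40 ± 0.08. Ifit1, which binds viral RNA, was at 4.31, 4.36 and 4.63 in MWF and spread from 4.23 to 7.91 in the others, a difference of -0.88 ± 0.13. Mx2, the paralogue of Mx1, differed by -0.43 ± 0.07. Irf7, a factor that drives the response, was at 7.01, 7.30 and 7.35, against 7.00 to 8.49, and was not called. The mean of the list lay within the range of the others, 7.04 to 7.73, in each MWF animal. The microglia markers, given above for the same animals, were not higher in MWF; their part in these levels was not tested.

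**Figure D5:**
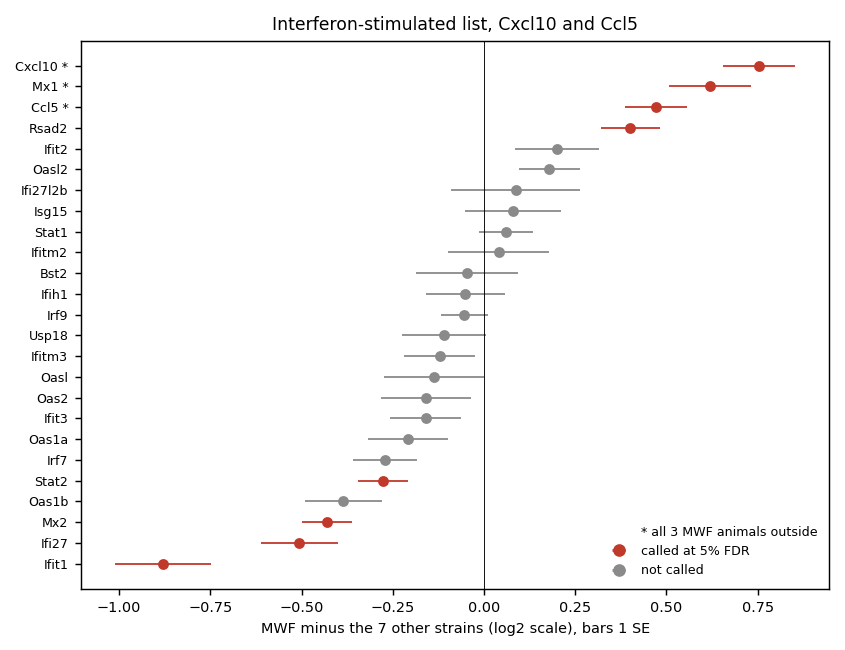
Difference between MWF/Hsd and the 7 other strains (horizontal axis, log2 scale, bars 1 SE) for 23 interferon-stimulated genes, Cxcl10 and Ccl5. Red genes were called at 5% FDR and asterisks mark genes with all 3 MWF animals outside: Cxcl10, Mx1 and Ccl5 stand at the top and Ifit1 at the bottom.

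The starts of Mx1 and Cxcl10 are shown because both genes rose in MWF. Ccl5 rose too, but the promoter set used here had no entry for it, so it was not searched. Each runs from 250 bases before to 50 bases after the gene start in GRCr8. Capitals mark matches on either strand to GAAA followed after any 2 bases by GAAA, a spacing known from interferon response elements, and to GGGA followed after any 2 bases by TTCC, a pattern of NF-kappa-B sites. Mx1 lies at chr11:50294557-50294856 on the minus strand and Cxcl10 at chr14:15988816-15989115 on the plus strand.
Mx1: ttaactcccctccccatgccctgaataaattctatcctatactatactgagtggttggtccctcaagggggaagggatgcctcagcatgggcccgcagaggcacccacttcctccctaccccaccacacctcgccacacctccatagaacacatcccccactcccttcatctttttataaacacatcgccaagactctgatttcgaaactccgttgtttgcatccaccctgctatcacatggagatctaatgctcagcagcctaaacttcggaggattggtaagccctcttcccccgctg
Cxcl10: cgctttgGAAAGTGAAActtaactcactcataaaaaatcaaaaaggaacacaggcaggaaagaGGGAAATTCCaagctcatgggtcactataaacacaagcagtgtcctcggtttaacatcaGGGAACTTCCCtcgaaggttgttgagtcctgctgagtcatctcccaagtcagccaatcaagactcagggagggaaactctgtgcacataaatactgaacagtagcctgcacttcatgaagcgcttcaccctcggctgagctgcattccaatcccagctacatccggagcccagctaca
The GAAA pair occurred in 3.92% of 33469 rat promoters of this length and the GGGA pattern in 1.30%. The Cxcl10 window held the first from 243 bases before the gene start and the second from 187, 128 and 127 bases before it, the last pair overlapping on opposite strands. The Mx1 window held neither. Among 60 promoters of called members, the GAAA pair was found in Cxcl10 and Mael and the GGGA pattern in Cxcl10. The sequences are those of the GRCr8 assembly, and the sequences of the 8 strains were not read. Any part of these matches in the levels was not tested.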

How the data were processed

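Whole-brain total RNA was measured in 3 MWF/Hsd animals and 21 animals of 7 other strains of batches 15 to 17. The deposited values were read as log2 values from their range and from the authors' method for an earlier release. Per the submitters' processing notes the authors used cutadapt 1.9.1, Bowtie2 2.3.4.3, HISAT2 2.1.0, StringTie 1.3.5, RSEM 1.3.1 and DESeq2. For an earlier release the study's methods describe strain-specific genomes, removal of 1 factor of unwanted variation and a regularised log, which draws the differences of low genes towards 0. For the release used here these steps, the scaling across libraries and the genome build are not given in the sources used here. Sequencing depth is unknown, so that no counting error is given.

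From these values limma 3.58.1 in R 4.3.3 was fitted to the 24 animals with 1 coefficient per strain, and MWF was compared with the unweighted mean of the 7 other strain means, with Benjamini-Hochberg adjustment over 20859 features and a 5% false discovery rate. Spike-in rows were left out. The fit was tested on simulated data with known differences. The labels do not say that animals of a strain came from separate litters, so p-values refer to these animals. With 1 coefficient per strain they rest on the spread between animals of the same strain. The spread between the 7 other strains enters only where these strains were pooled. Genes were named by a rule: a symbol, a call, all 3 MWF animals outside, and the larger group mean above the median of all values, with at most 12 in each direction, at most 3 identifiers in each direction and the called list genes that lay outside. Features with a value over 30 were not named. Other genes were described after their values were seen: Paqr3, members below that median, members not called, list genes that did not lie outside, Y-linked genes and genes at the edge of the rule. The members and gene lists were chosen with earlier results of these data known. Gene order, biotypes and promoters came from RefSeq (GRCr8), in which 78 of the 101 members were matched by symbol.

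Alternatives were batch as a covariate, the replicate number as a block, all animals in the fit, the other strains pooled, recentred libraries, a filter on low values, an intensity trend, a stricter threshold, other tables, added strains, and leaving out each animal or strain.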

Additional observations from a re-analysis of the deposited data

How the results depend on the processing

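Precision was limited by 3 MWF animals, 1 per batch, and depth is unknown. Every called member kept its direction in every fit on the RefSeq gene table, but 46 of the 82 were called in each of the 31 fits that left out an animal or a strain, 21 lost the call only without an MWF animal, and 15 also lost it without an animal or strain of the others. Over these fits the number called ran from 167 to 468, the called and outside features from 52 to 81 higher and from 15 to 44 lower. The ends of the outside ranges came from fits with 2 MWF animals, for which the outside rule is easier to meet. With the other strains pooled as 1 group, 46 were called (31 higher and 10 lower outside), and 41 of the 82 members lost the call. Among features above the median level (10429), 75 were called (9 and 5 outside). At 1% FDR 188 were called. With the libraries recentred to 1 median 341 were called (53 higher and 24 lower outside), and 6 of the 82 members lost the call. Adding other strains of these batches gave 1117 called, with 50 higher and 18 lower ones outside the larger set of animals. All 82 members kept the call there. Without the libraries of batch 15, chosen after the data were seen, 92 higher and 53 lower features were called and outside. There too 2 MWF animals were left, and 16 of the 82 members lost the call. The reconstructed gene table (84239 features, 2 MWF animals) gave 45 higher and 91 lower features that were called and outside. This is the opposite balance to the 58 and 24 of 20859 features in the RefSeq table. The earlier Ensembl table (18644 features, 2 MWF animals) gave 179 called, with 54 higher and 31 lower ones outside. In both the rule was met by 2 MWF animals, so the counts are not like for like. Of the called members found in these tables, 10 of 52 and 27 of 54 kept call and direction. In the reconstructed table Vom2r53 was at -1.32 and Trim43a at -0.0106. In the Ensembl table LOC102548633 was at -0.0001 and Prkag1 at 0.10. The cause of these changes was not tested. With the replicate number as a block 475 features were called, 60 higher and 26 lower outside, and no called member lost its call. Same-numbered animals deviated together at r = -0.37 to 0.65, above 0.1 in 12 of 21 pairs, and the MWF animal correlated best with its own number in 11 of 21. For FHH and M520, as for MWF, the numbers 1 to 3 coincide with batches 15 to 17, so that number and batch cannot be told apart there. With batch as a covariate 494 were called, 59 higher and 23 lower outside, and 1 of the 82 called members lost its call.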

Other observations

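In 286 features the difference was called although at least 1 MWF animal lay among the others. RT1-CE16, a class I gene, was 1 of them, at 8.20, 8.36 and 7.82 in MWF and 7.79 to 9.58 in the others, a difference of -0.80 ± 0.15. Gsta4, which detoxifies lipid aldehydes, was at 10.34, 10.25 and 10.17 in MWF and 9.21 to 10.39 in the others, a difference of 0.57 ± 0.09.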
